A study of Rattus norvegicus with 129 samples.

Results

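Livers of female Sprague-Dawley rats given perfluorooctane sulfonate (PFOS) for 3 weeks were compared with livers of rats given vehicle, 4 of the 129 arrays of the series. The rats were 60 days old. PFOS was given by gavage at 5 mg/kg each day for 21 days to 2 rats, and 2 rats received the Tween-20 vehicle in the same way. Rat 1 and rat 2 of each group are given in the order of their numbers in the labels, which are neighbouring between the groups, and whether neighbours shared a cage, litter or day is not stated. These 4 arrays were chosen by the group named in their titles, and each array held liver RNA of 1 rat. The other studies of the series enter only as comparisons. They held female rats of the same strain given 5 daily doses of phenobarbital (PB) or pregnenolone-16α-carbonitrile (PCN), both at 100 mg/kg (5 each). Their vehicle group was given methylcellulose (5 rats). Male rats were given PFOS at 10 mg/kg/day or vehicle for a time that the labels leave out (3 each). Other male rats were given Wy-14643 at 60 mg/kg/day or vehicle for 7 days (3 each). The male rats given PFOS were Sprague-Dawley and those given Wy-14643 Wistar Hanover.

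PFOS is a persistent fluorinated surfactant whose shape resembles that of a fatty acid. Fatty acids and fibrate drugs switch on the nuclear receptor PPARα, which in rodent liver raises the enzymes that split and oxidise fatty acids in peroxisomes and mitochondria, and Wy-14643 is an experimental agonist of it. The receptors CAR and PXR respond to foreign compounds and raise cytochromes P450 of the 2B and 3A families together with conjugating enzymes and transporters. PB is the usual activator of CAR, and PCN that of rat PXR.

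The values are probe set intensities on a linear scale, and all levels below are log2(intensity + 16), on which an intensity of 0 or less stands at 4.00. The mean intensity was 192 and 295 in the PFOS rats, against 220 and 257 in the vehicle rats, and 25.7% to 26.9% of the values of an array were at or under 0. Hepatocyte markers were bright in all 4 rats, and the female enzyme Cyp2c12 stood at 10.24 and 10.51 after PFOS, against 10.53 and 10.38 after vehicle. With 2 rats a side no exact permutation test can give a two-sided p under 0.333. Separation is therefore given as an effect size, the smallest of the 4 differences between a PFOS rat and a vehicle rat, and a gene is called 2-fold apart where that difference is at least 1 on the log2 scale. In limma over the 4 arrays 0 of 8740 probe sets passed an adjusted p of 0.05 (0%), and 421 had an unadjusted p under it (4.82%). None of the differences below therefore passed that test. It was also run on simulated data, with each probe set's spread taken from its own 2 rats a side. There it called 1 of 50 probe sets changed by 2 on the log2 scale and 0 of 50 changed by 3. Under that setting limma over the 4 arrays could hardly call any change. The test had a median of 2.48 degrees of freedom.

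Between the groups, 48 probe sets were at least 2-fold apart in every pair of rats and higher after PFOS (0.549% of those tested), and 27 were lower (0.309%). Leaving out 1 rat, which leaves 2 pairs to compare, gave 116 to 170 higher and 83 to 227 lower, with the most higher without PFOS rat 1 and the most lower without PFOS rat 2. On simulated data the same rule picked unchanged probe sets in a number not far below the sum of both counts, so being 2-fold apart does not by itself mark a probe set as changed. Read 1 probe set a gene, these were 22 of 4736 genes higher (0.465%) and 17 lower (0.359%). The groups did not overlap, at any size of difference, for 452 genes higher (9.54%) and 465 lower (9.82%). The bright end of both lists was unequal. Of the 22 higher genes 17 lay above the noise level of their arrays in both PFOS rats, and of the 17 lower genes 6 did so in both vehicle rats. The noise level, 84.7 to 111 in intensity, is the size below which 95% of an array's negative values lie, and it was chosen after the data were seen. For 5 of these 17 genes both vehicle rats, and for 2 of these 6 both PFOS rats, were under that level. Their differences depend on the pseudocount, and with the noise level in place of the dim values they are lower bounds, which for Acot2, Abcc3 and Olr59 were at least 1.37-fold, 1.16-fold and 1.47-fold higher.

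**Figure D1:**
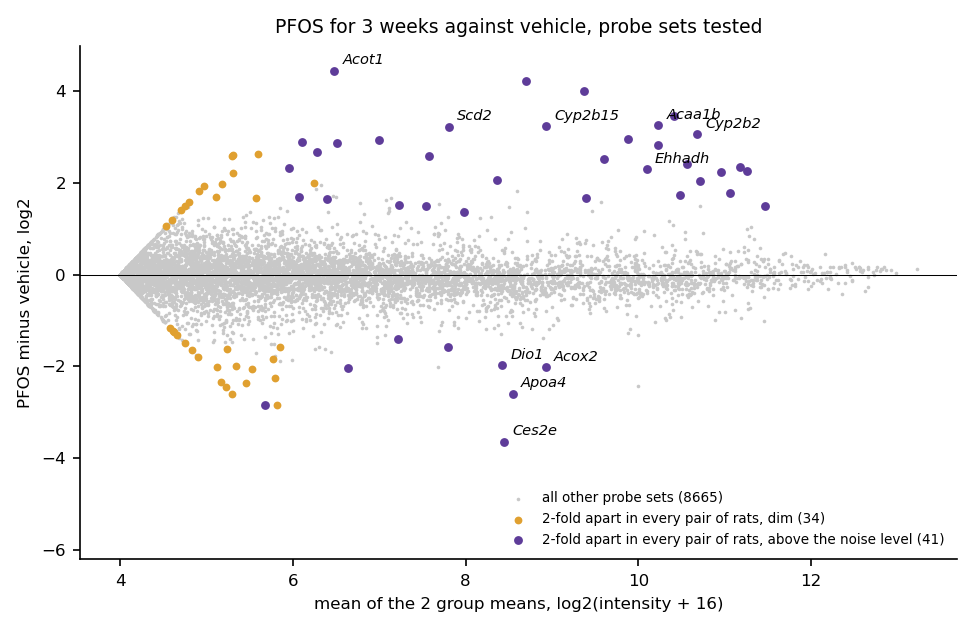
Each point is 1 of 8740 probe sets, with the mean level of both groups, log2(intensity + 16), on the horizontal axis and PFOS minus vehicle on the log2 scale on the vertical axis. The 75 probe sets at least 2-fold apart in every pair of rats are coloured, 41 of them above the noise level, and the bright ones lie mostly above 0.

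Enzymes of fatty acid and drug handling had the widest separation on the log2(intensity + 16) scale. Acot1, a cytosolic thioesterase that frees fatty acids from coenzyme A, stood at 8.45 and 8.95 in the PFOS rats, against 4.49 and 4.00 in the vehicle rats. In intensity these were 333.1 and 479.9 after PFOS, against 6.5 and -4.9 after vehicle, so that both vehicle rats were under the noise level. The difference on this scale was 4.45 ± 0.32 (SE, n = 2 each) and ran from 2.79 with a pseudocount of 64 to 7.19 with one of 1. Against the noise level the gene was at least 4.45-fold higher after PFOS. Cyp2b15, a P450 of the 2B family, stood at 10.50 and 10.60 after PFOS, against 7.46 and 7.16 after vehicle, a difference of 3.24 ± 0.14 with a closest pair of 3.04. Acaa1b, the peroxisomal thiolase that makes the last cut of each round of β-oxidation, stood at 11.73 and 12.00 after PFOS, against 9.08 and 8.11 after vehicle. Its difference was 3.27 ± 0.45, and its vehicle rats lay further from each other than its PFOS rats did.

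One gene was far below vehicle. Ces2e, a carboxylesterase that hydrolyses esters of drugs and lipids, stood at 6.39 and 6.85 after PFOS, against 10.30 and 10.22 after vehicle. The intensities were 67.9 and 99.3 after PFOS, against 1242.2 and 1173 after vehicle. The difference was -3.64 ± 0.21 on this scale (SE, n = 2 each), with a closest pair of -3.37. With the spread between rats shared with the female PB, PCN and vehicle arrays, the SE was 1.72 (adjusted p = 0.74 in limma). The small SE from 2 rats a side therefore does not show that the difference is precise. Both PFOS rats were under the noise level, against which the gene was at least 12.3-fold lower after PFOS. A probe set shared by the related genes Ces2 and Ces2c lay the other way, at 9.03 and 8.72 after PFOS, against 6.54 and 6.01 after vehicle.

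The promoters of these 4 genes are shown because they belong to the genes with the widest separation. They run from 250 bases before to 50 bases after the start of each gene, 5′ to 3′ on the gene's strand, from RefSeq on GRCr8. Capitals mark AGGTCA on either strand, the hexamer that nuclear receptors of this kind bind.
Acot1, chr6:109367024-109367323 (plus strand): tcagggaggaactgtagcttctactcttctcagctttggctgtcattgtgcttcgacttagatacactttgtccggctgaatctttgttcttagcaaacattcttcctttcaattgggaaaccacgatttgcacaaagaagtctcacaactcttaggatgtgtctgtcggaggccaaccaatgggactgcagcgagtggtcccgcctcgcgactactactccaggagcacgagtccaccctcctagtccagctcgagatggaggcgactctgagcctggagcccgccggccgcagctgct
Cyp2b15, chr1:91221615-91221914 (plus strand): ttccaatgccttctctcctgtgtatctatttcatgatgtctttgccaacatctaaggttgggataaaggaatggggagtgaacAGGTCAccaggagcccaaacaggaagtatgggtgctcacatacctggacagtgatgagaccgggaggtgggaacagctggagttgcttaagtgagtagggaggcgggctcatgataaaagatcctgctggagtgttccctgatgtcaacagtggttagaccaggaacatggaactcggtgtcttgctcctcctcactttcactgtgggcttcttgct
Acaa1b, chr8:127759520-127759819 (minus strand): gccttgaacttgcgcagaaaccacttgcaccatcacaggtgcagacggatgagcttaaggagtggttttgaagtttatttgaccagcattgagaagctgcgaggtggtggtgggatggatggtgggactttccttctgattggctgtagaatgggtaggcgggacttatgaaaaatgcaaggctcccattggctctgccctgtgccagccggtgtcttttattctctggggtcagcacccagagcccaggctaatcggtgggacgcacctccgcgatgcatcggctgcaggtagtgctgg
Ces2e, chr19:163649-163948 (plus strand): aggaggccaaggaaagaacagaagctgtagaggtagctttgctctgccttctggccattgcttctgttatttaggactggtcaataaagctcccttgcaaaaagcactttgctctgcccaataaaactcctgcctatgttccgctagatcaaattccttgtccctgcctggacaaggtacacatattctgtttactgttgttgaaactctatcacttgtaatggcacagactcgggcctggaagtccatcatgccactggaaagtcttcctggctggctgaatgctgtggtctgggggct
The hexamer occurred 1 time among the 4, in Cyp2b15, where it began 167 bases before the start on the gene's own strand. It was found in 16.2% of 33469 promoters of this length, in 13.7% of 4205 promoters of genes on the array, and in 6 of the 31 promoters matched among the 39 genes that were 2-fold apart (19.4%). The same motif as a direct repeat, AGGTCANAGGTCA, was in 0 of these 31 and in 0.0538% of all. It overlaps the single hexamer by design. These letters are matched in this window only, and enhancers further away were not searched.

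**Figure D2:**
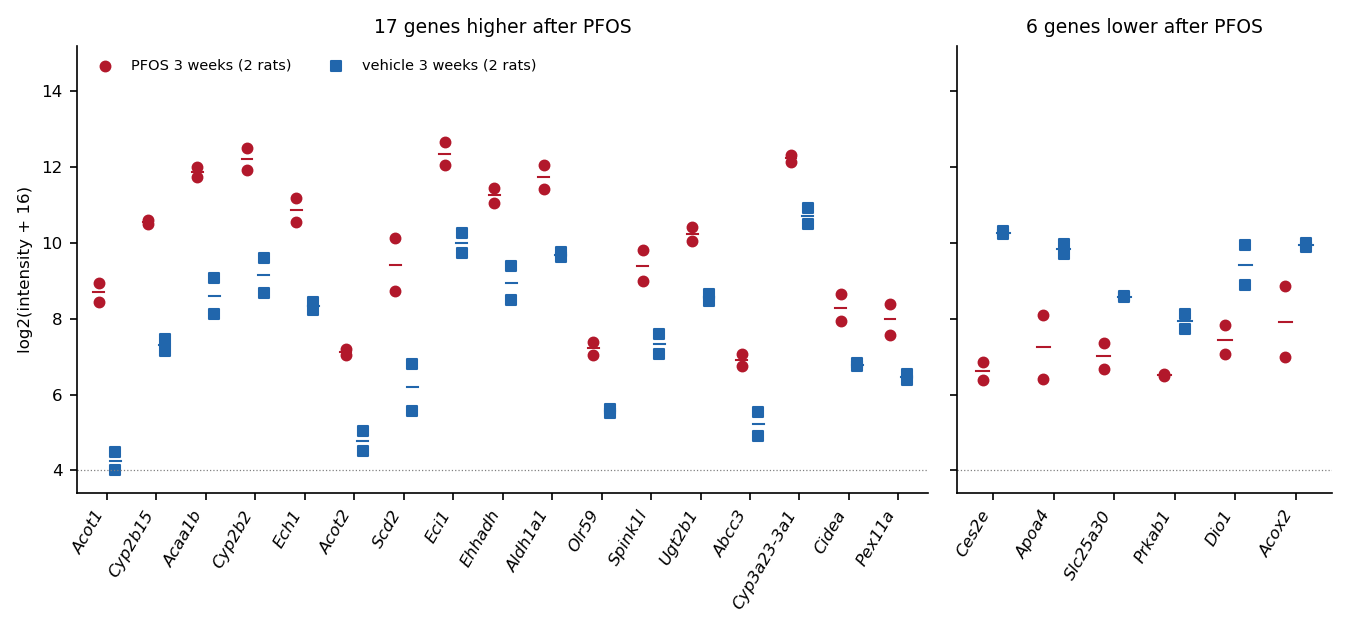
Levels, log2(intensity + 16), of the 17 higher and 6 lower genes that were at least 2-fold apart in every pair of rats and above the noise level, with PFOS rats as circles left of vehicle rats as squares and bars at the group means. The dotted line is the floor of 4.00, which 1 vehicle rat reached for Acot1.

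Genes of fatty acid oxidation formed one of the groups among the bright genes higher after PFOS. Of 41 measured PPARα target genes 8 were at least 2-fold apart and higher and 0 lower, against 0.465% and 0.359% of all genes. For 21 higher and 1 lower the groups did not overlap, against 9.54% and 9.82% of all genes. Without PFOS rat 1 the count of 8 became 13, while over all probe sets the higher count went from 48 to 170. The median difference of the list was 0.58, against 0 over all genes. The 8 were Acot1, Acaa1b, Ech1, Eci1, Acot2, Ehhadh, Pex11a and Cidea, and the lists were drawn up with earlier results of these data known. In the peroxisome, Ehhadh, the bifunctional enzyme of β-oxidation, stood at 11.06 and 11.44 after PFOS, against 9.39 and 8.49 after vehicle, a difference of 2.31 ± 0.44 (SE, n = 2 each). Ech1, an isomerase for unsaturated fatty acids, stood at 10.56 and 11.17 after PFOS, against 8.23 and 8.45 after vehicle, a difference of 2.53 ± 0.29. Pex11a, which takes part in the division of peroxisomes, stood at 7.58 and 8.39 after PFOS, against 6.55 and 6.37 after vehicle. Its closest pair of rats was 1.04 apart, just past the 2-fold limit, and both vehicle rats were under the noise level. A dimmer probe set of Pex11a differed by 1.19, with a closest pair of 0.34. Crot, which passes shortened fatty acids on to carnitine, was short of that limit at 9.67 and 10.65 after PFOS, against 9.06 and 8.48 after vehicle, with a closest pair of 0.61. Cidea, a protein of lipid droplets, stood at 7.94 and 8.64 after PFOS, against 6.83 and 6.74 after vehicle.

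Peroxisomal genes differed unevenly. Of 22 measured peroxisomal genes 4 were 2-fold apart and higher and 1 lower (0.465% and 0.359% of all genes), with a median difference of 0.22. Cat, catalase, the usual marker enzyme of the organelle, had levels of 9.83 and 10.51 after PFOS, against 9.97 and 10.00 after vehicle, which overlapped. The lower gene was Acox2, the oxidase of branched fatty acids and bile acid side chains, at 6.99 and 8.85 after PFOS, against 9.99 and 9.88 after vehicle. Its difference was -2.02 ± 0.84, and the PFOS rats lay wide apart, and rat 2 was 1.03 below the nearest vehicle rat. Abcd3 and Pxmp2, both proteins of the peroxisomal membrane, differed by 0.12 ± 0.49 and 0.19 ± 0.26, and for both the groups overlapped.

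In mitochondria 2 of 22 measured genes of fatty acid oxidation and ketone bodies were 2-fold apart and higher (0.465% of all genes). Without PFOS rat 1 there were 4, where the higher count over all probe sets went from 48 to 170. The groups did not overlap for 11 higher and 0 lower, against 9.54% and 9.82% of all genes. Eci1, which moves double bonds so that unsaturated fatty acids can be oxidised, stood at 12.04 and 12.65 after PFOS, against 10.27 and 9.73 after vehicle. Of its other probe sets one differed by 2.25, and the remaining, dimmer ones by 0.60, with overlap, and by 0.00, at the floor. Acot2, the mitochondrial relative of Acot1, stood at 7.04 and 7.19 after PFOS, against 5.05 and 4.52 after vehicle, and its dimmer probe set differed by 0.63. The enzymes of the main spiral were mixed. Hadhb, the thiolase subunit of the trifunctional protein, stood at 9.20 and 9.26 after PFOS, against 8.51 and 8.47 after vehicle, a difference of 0.74 ± 0.04. Acaa2, the mitochondrial thiolase, differed by 0.77 ± 0.16, without overlap. The acyl-CoA dehydrogenases Acadvl, Acadl and Acads overlapped between the groups, with differences of 0.22 ± 0.39, 0.31 ± 0.37 and 0.08 ± 0.26, and so did the hydratase Echs1 at 0.34 ± 0.42. Of the carriers, Slc25a20, which exchanges carnitine, differed by 0.88 ± 0.33 without overlap. Cpt1a, the entry gate of fatty acids into mitochondria, overlapped at 8.17 and 8.55 after PFOS, against 8.43 and 9.34 after vehicle.

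Several textbook PPARα targets were not 2-fold apart. Cyp4a1, the fatty acid ω-hydroxylase, stood at 10.30 and 10.19 after PFOS, against 9.48 and 9.06 after vehicle, a difference of 0.98 ± 0.20 without overlap. A probe set shared by Cyp4a2 and Cyp4a3 was at 10.37 and 10.82 after PFOS, against 10.65 and 10.57 after vehicle. Fabp1, the abundant fatty acid carrier of the hepatocyte, overlapped at 12.58 and 13.04 after PFOS, against 12.81 and 12.59 after vehicle. Pdk4, the kinase that holds back pyruvate oxidation, differed by 0.70 ± 0.53 and Cpt2 by 0.19 ± 0.12.

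Cytochromes P450 of the 2B family formed the other bright group. Of 18 measured phase 1 genes of CAR and PXR 5 were 2-fold apart and higher and 0 lower (0.465% and 0.359% of all genes). Without overlap 11 were higher and 0 lower (9.54% and 9.82% of all genes). The median difference of this list was 0.59. The 5 were Cyp2b15, Cyp2b2, Aldh1a1, Cyp3a18 and Cyp3a23-3a1, and under quantile normalization the first 3 stayed 2-fold apart. Cyp2b2, a main PB-inducible P450 of the rat, stood at 11.92 and 12.49 after PFOS, against 9.60 and 8.68 after vehicle. Its difference was 3.06 ± 0.48 (SE, n = 2 each), and its further probe set gave 2.84. The 3 probe sets shared by Cyp2b2 and Cyp2b1 differed by 3.47 to 4.23, more than either probe set of Cyp2b2 alone. Members of this family have near-identical sequences and the probes can be shared between them, so the level of a single member is uncertain. Cyp2b3, a member that PB does not induce in rat liver, stood at 10.33 and 10.80 after PFOS, against 10.49 and 10.50 after vehicle.

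The 3A family was higher by less and unevenly. Cyp3a23-3a1, the main PXR-induced P450 of rat liver, stood at 12.14 and 12.32 after PFOS, against 10.92 and 10.50 after vehicle, a difference of 1.51 ± 0.20, and its 4 probe sets ran from 1.17 to 1.82. Cyp3a18 stood at 7.64 and 6.84 after PFOS, against 5.63 and 4.85 after vehicle, and PFOS rat 2 was not above its noise level. Under quantile normalization or median scaling the closest pair of Cyp3a18 came under the 2-fold limit, with differences of 2.05 and 2.01. Cyp3a9 and Cyp3a2 overlapped between the groups, with Cyp3a9 at 9.37 and 10.64 after PFOS, against 9.81 and 10.05 after vehicle. A probe set shared by Cyp3a2 and Cyp3a23-3a1 differed by 2.96. Aldh1a1, which oxidises retinal, stood at 11.42 and 12.06 after PFOS, against 9.62 and 9.75 after vehicle. Ephx1, the microsomal epoxide hydrolase, differed by 1.05 ± 0.27 with a closest pair of 0.66. Alas1, the first enzyme of haem synthesis, and Por, the P450 reductase, differed by 0.71 ± 0.19 and 0.61 ± 0.35 without overlap.

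Of 43 measured genes of conjugation and transport 2 were 2-fold apart and higher and 0 lower (0.465% and 0.359% of all genes). The count of 2 became 6 without PFOS rat 1 and 4 without vehicle rat 1. Over all probe sets the higher count of 48 became 170 and 121 in these settings. The median of the list was 0.13. Ugt2b1, a glucuronosyltransferase, stood at 10.05 and 10.41 after PFOS, against 8.66 and 8.47 after vehicle, a difference of 1.67 ± 0.19. Abcc3, the pump that sends conjugates from hepatocytes into blood, stood at 6.75 and 7.06 after PFOS, against 5.53 and 4.90 after vehicle. Slco1a4, an uptake carrier of bile acids and drugs, missed the limit at 9.97 and 10.76 after PFOS, against 9.24 and 8.33 after vehicle, a difference of 1.58 ± 0.54. Of 13 measured glutathione transferases 3 were higher without overlap (9.54% of all genes), Gsta3 by 0.96 ± 0.31, Gstm7 by 0.94 ± 0.28 and Gstm1 by 0.84 ± 0.40. The groups overlapped for the other 10, with differences from -0.22 ± 0.69 for Gstp1 to 0.36 ± 0.31 for Gsta4. Sult2a2, a sulfotransferase of bile acids and steroids, lay the other way at 10.48 and 11.44 after PFOS, against 11.77 and 12.16 after vehicle. Of 21 measured NRF2 target genes the 2 that were 2-fold apart were Abcc3 and Aldh1a1, both members of the lists above, and without vehicle rat 1 there were 4. Nqo1, the standard NRF2 marker, stood at 9.06 and 8.34 after PFOS, against 8.04 and 8.33 after vehicle, where rat 2 of both groups was level. Cyp1a1, the marker of the receptor AHR, was at the floor in all 4 rats.

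**Figure D3:**
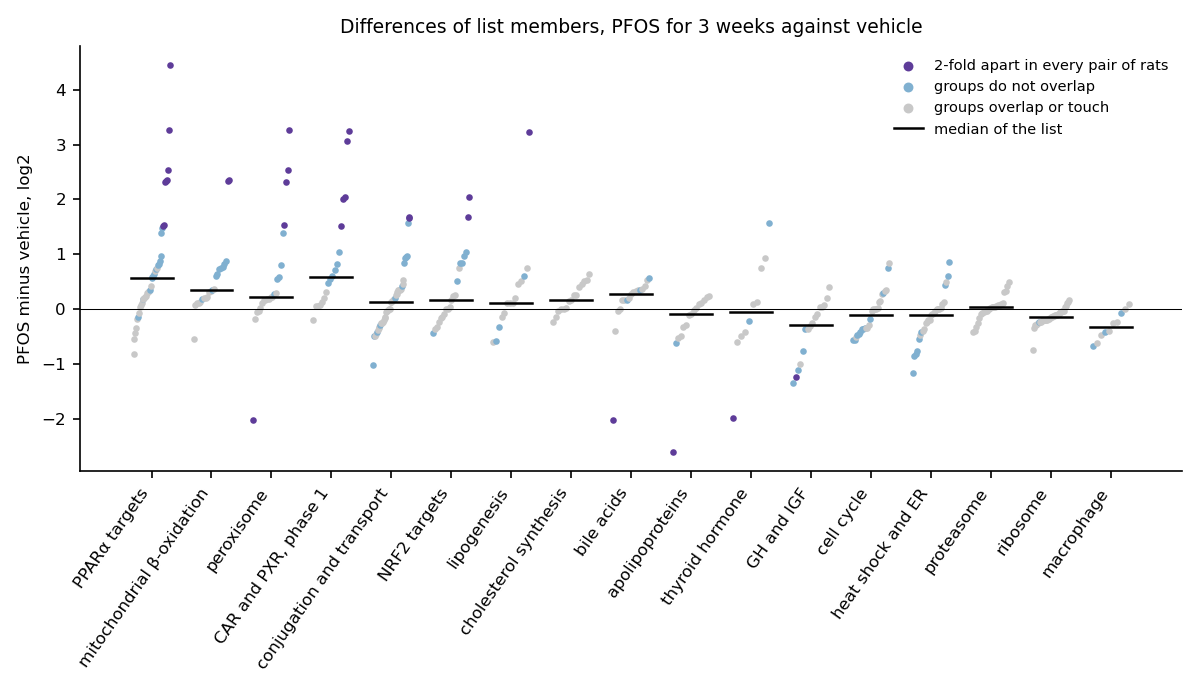
Each point is a member of a gene list, ordered by its PFOS minus vehicle difference on the log2 scale, and the bar is the list's median. Points 2-fold apart in every pair of rats stand above 0 in the PPARα and the CAR and PXR lists, whose medians are 0.58 and 0.59. The proteasome and cholesterol lists hold none, where 0.465% of all genes were higher and 0.359% lower by that rule.

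Lipid synthesis held 1 outlying gene. Of 14 measured genes of lipogenesis 1 was 2-fold apart and higher (0.465% of all genes). It was Scd2, a stearoyl-CoA desaturase, at 8.72 and 10.12 after PFOS, against 5.57 and 6.81 after vehicle. The difference was 3.23 ± 0.84, with the rats of each group well apart. Without vehicle rat 1 the count was 2, since Me1, malic enzyme, stood at 8.28 and 8.68 after PFOS, against 8.32 and 7.12 after vehicle. Of the 6 probe sets of Scd2 3 were 2-fold apart, and the others differed by as little as 0.00. The main liver desaturase, given as Scd, stood at 10.55 and 11.17 after PFOS, against 10.58 and 10.11 after vehicle. Fasn, fatty acid synthase, overlapped at 8.56 and 7.72 after PFOS, against 7.90 and 7.97 after vehicle. Srebf1, the regulator of lipogenesis, differed by 0.60 ± 0.25 without overlap.

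Cholesterol synthesis genes differed between rats but not between the groups. None of 15 measured members was 2-fold apart (0.465% higher and 0.359% lower among all genes), and for all 15 the groups overlapped. Sqle, squalene epoxidase, stood at 7.34 and 9.32 after PFOS, against 6.89 and 8.72 after vehicle. Idi1, an isomerase earlier in the path, stood at 7.90 and 10.23 after PFOS, against 8.33 and 9.85 after vehicle. In both groups rat 2 was high and rat 1 low, for 14 of the 15 genes. The median step up to rat 2 was 1.07 in the PFOS group and 0.74 in the vehicle group, against 0.37 and 0.10 over all genes. A step up in both groups held for 93.3% of these genes and for 48.1% of all genes. Other lists came near, with 83.3% of proteasome, 81.1% of ribosomal and 80% of apolipoprotein genes, while the lowest, the male-biased list, had 11.1%. Rat 2 also had the higher mean intensity in each group, 295 against 192 after PFOS and 257 against 220 after vehicle. A step up in both groups is therefore not particular to cholesterol synthesis. Its median size, however, was larger there than in any other list, in both groups. The median steps were 0.76 after PFOS and 0.2 after vehicle for proteasome genes. They were 0.71 and 0.27 for ribosomal genes, and 0.67 and 0.3 for apolipoprotein genes. Over all probe sets, rats with neighbouring numbers correlated at 0.966 (rat 1 of each group) and 0.968 (rat 2), against 0.964 between the PFOS rats and 0.963 between the vehicle rats.

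**Figure D4:**
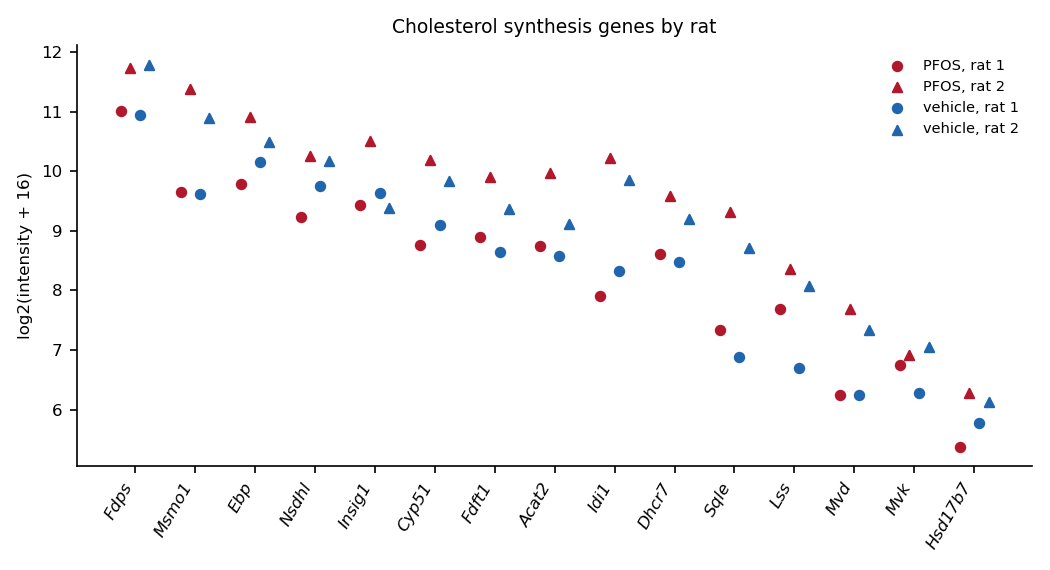
Levels, log2(intensity + 16), of 15 cholesterol synthesis genes in the 2 PFOS rats and, to their right, the 2 vehicle rats. Triangles, rat 2 of each group, lie above the circles of their own group for 14 genes.

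Among the bright genes lower after PFOS, proteins of lipoprotein and hormone handling stood beside Ces2e and Acox2. Apoa4, an apolipoprotein of triglyceride-rich particles and HDL, stood at 6.42 and 8.09 after PFOS, against 9.71 and 9.98 after vehicle. The difference was -2.59 ± 0.76 (SE, n = 2 each), and the PFOS rats were far apart. Apoa1, the main HDL protein, stood at 10.94 and 10.97 after PFOS, against 11.18 and 11.96 after vehicle, without overlap but short of 2-fold. For the other 13 of 15 measured genes of the list the groups overlapped. Dio1, the deiodinase that activates thyroxine in liver, stood at 7.06 and 7.83 after PFOS, against 8.89 and 9.93 after vehicle, a difference of -1.97 ± 0.58. Its second probe set differed by -0.48. Serpina7, the thyroxine-binding globulin, overlapped at 6.86 and 6.15 after PFOS, against 6.11 and 8.08 after vehicle.

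Slc25a30, a carrier of the mitochondrial membrane, stood at 6.68 and 7.35 after PFOS, against 8.56 and 8.60 after vehicle. Prkab1, a regulatory subunit of the energy sensor AMPK, stood at 6.48 and 6.54 after PFOS, against 7.73 and 8.12 after vehicle. Prkab1 and Ces2e had the smallest SE among the 6 bright lower genes, 0.18 and 0.21. They are also the 2 of these 6 with both PFOS rats under the noise level. With the spread shared with the female arrays their SEs were 0.43 and 1.72. The other 11 lower genes, Ccl5, Or1f32, Dgcr6, Svs3a, RGD1306474, Pip5k1c, Pkm, Igf2r, Lhx5, Orai1 and Tff3, were under the noise level in at least 1 vehicle rat, and 6 of them were at the floor in both PFOS rats. The 5 dim genes on the higher side were Hdc, Cyp17a1, Asic1, Cyp3a18 and Or8g23. Hdc, which makes histamine, stood at 6.63 and 6.61 after PFOS, with 4.00 in both vehicle rats. Olr59, an odorant receptor, and Spink1l, a protease inhibitor, completed the bright higher genes with differences of 1.65 ± 0.15 and 2.07 ± 0.45.

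Genes of growth hormone signalling were lower in part, and no bright one was 2-fold apart in all pairs of rats. Of 16 measured members 5 were lower and 0 higher without overlap (9.82% and 9.54% of all genes), with a median of -0.27. The member 2-fold apart was Igf2r, at the floor after PFOS. Without PFOS rat 2 there were 6 such members, while over all probe sets the lower count went from 27 to 227. Cish, a target of STAT5, stood at 6.72 and 7.63 after PFOS, against 8.03 and 8.52 after vehicle. Igfbp3, a carrier of IGF1, stood at 6.89 and 7.64 after PFOS, against 7.91 and 8.11 after vehicle. Igf1 itself overlapped. The male enzyme Cyp2c11 stood at 8.31 and 7.86 after PFOS, against 7.10 and 7.29 after vehicle, while the female Cyp2c12 overlapped. Of 9 measured male-biased genes 3 were higher and 0 lower without overlap (9.54% and 9.82% of all genes), and 6 overlapped. Of 13 measured female-biased genes 4 were higher and 1 lower without overlap, and 8 overlapped. Cyp7a1, the first enzyme of bile acid synthesis, differed by 0.33 ± 0.91 and Pck1, of glucose production, by -0.12 ± 0.83, both with overlap. Cell cycle genes (26 measured), heat shock and ER chaperones (27), proteasome subunits (24) and ribosomal proteins (37) held 0 members that were 2-fold apart, with medians of -0.10, -0.10, 0.03 and -0.13. Over all genes 0.465% were higher and 0.359% lower by that rule, and at such shares lists of this size can hold none.

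Markers of other liver cells were followed in the same arrays. In whole tissue, fewer cells of a type and less RNA per cell cannot be told apart. Of 10 measured macrophage markers 3 were lower and 0 higher without overlap (9.82% and 9.54% of all genes), with a median of -0.32. The 3 were Lyz2, Ctss and C1qc, with closest pairs of -0.32, -0.10 and -0.01, so that C1qc nearly touched. Summed intensity of the 10 markers was 2100 and 2870 after PFOS, against 2770 and 4200 after vehicle. Clec4f, a Kupffer cell receptor, overlapped at 9.15 and 9.45 after PFOS, against 9.42 and 10.11 after vehicle, and Csf1r was at the floor in all 4 rats. Cd74, the invariant chain of MHC class II, stood at 8.54 and 8.37 after PFOS, against 9.27 and 9.85 after vehicle. RT1-Da, a class II chain, stood at 9.11 and 8.99 after PFOS, against 9.56 and 9.77 after vehicle. RT1-Ba, another class II chain, overlapped at 8.61 and 8.15 after PFOS, against 7.32 and 8.90 after vehicle. Of 18 measured lymphocyte markers 4 were lower and 0 higher without overlap (9.82% and 9.54% of all genes), with a median of 0. Besides Cd74 and RT1-Da these were Cd79b and Cd247, both dim and each with a closest pair of -0.07. The summed lymphocyte markers, the class II genes included, were 1610 and 1750 after PFOS, against 1860 and 2750 after vehicle. Of the 18 markers 4 were at 0 in all rats. Blood cell markers summed to 820 and 3080 after PFOS, against 2410 and 3330 after vehicle, and the markers of pancreas, adipose tissue and muscle to 1420 and 3050 after PFOS, against 2720 and 5660 after vehicle. Without Cpa1, a pancreatic carboxypeptidase, the sums of that last list were 1250 and 2050 after PFOS, against 1260 and 1880 after vehicle, and for 18 of the 20 measured members the groups overlapped. The part of these cells in the differences above was not tested.

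The PFOS effect was set beside those of PB and PCN in females on the same array type, with each drug against its own vehicle. The PB and PCN comparisons shared their vehicle arrays. In limma over those arrays, PB raised 0.823% and lowered 0.591% of genes at an adjusted p under 0.05, and PCN 3.74% and 3.08%. Of the 22 genes higher after PFOS, 7 rose and 0 fell after PB, and 9 rose and 3 fell after PCN. The drug-metabolism genes Cyp2b15, Cyp2b2, Cyp3a23-3a1, Ugt2b1, Abcc3 and Aldh1a1 rose after both drugs. Cyp2b2 differed by 3.78 ± 0.16 after PB (adjusted p = 1.2e-08) and by 3.21 ± 0.16 after PCN (adjusted p = 1.6e-07). Scd2 rose after PB by 2.34 (adjusted p = 0.00096) and differed by 0.25 after PCN (adjusted p = 0.79). Of the 17 genes lower after PFOS, 0 passed after PB, and 1 fell after PCN, Dio1, with a change of -1.37 (adjusted p = 0.0031).

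Of the 8 PPARα targets named above 0 rose after PB, and 1, Cidea, rose after PCN. Ehhadh, Acot2 and Cyp17a1, a steroid hydroxylase, fell after PCN, with log2 changes of -1.01, -1.38 and -2.43. Acot1 differed by -0.42 after PB and by -0.58 after PCN, and Ech1 by -1.74 and -0.72, none of which passed. Whether the PFOS effect differed from each drug effect was tested in limma over 14 arrays. The PFOS effect was above that of PB at 1 of 4736 genes (0.0211%) and below it at 2 (0.0422%), and the counts against PCN were 4 (0.0845%) and 7 (0.148%). The tests shared the 4 arrays of PFOS and its vehicle. On simulated data the test against PB called 75 of 8540 unchanged probe sets, more than the 6 probe sets it called here. A pass therefore does not by itself mark a difference, and the test against PCN was not simulated. Of the 17 bright higher genes 1 passed, Ehhadh against PCN, whose effect was larger after PFOS by 3.32 ± 0.49 (95% interval 2.23 to 4.41, adjusted p = 0.023). Its adjusted p ran from 0.011 to 0.041 when an array was left out or the pseudocount or scaling changed. Against PB the Ehhadh difference was 2.81 ± 0.52 (adjusted p = 0.13). Among the dim higher genes Cyp17a1 passed against PCN at 5.07 ± 0.79 (adjusted p = 0.033), and no longer without PFOS rat 1 (adjusted p = 0.053) or vehicle rat 2 (adjusted p = 0.058), nor with a pseudocount of 64 (adjusted p = 0.12). Or8g23, under the noise level, passed against both drugs.

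For the 2B genes the PFOS effect was set against both drugs. The PFOS effect minus the PB effect was -0.11 ± 0.25 for Cyp2b15 (95% interval -0.66 to 0.45) and -0.72 ± 0.40 for Cyp2b2 (95% interval -1.61 to 0.17), and neither passed. The PFOS effect minus the PCN effect was 1.30 ± 0.25 for Cyp2b15 (95% interval 0.76 to 1.85, adjusted p = 0.078) and -0.15 ± 0.43 for Cyp2b2 (95% interval -1.10 to 0.80), and neither passed. Against PB the difference for Acot1 was 4.87 ± 0.88 (95% interval 2.92 to 6.82, adjusted p = 0.13) and for Acaa1b 3.72 ± 0.59 (95% interval 2.42 to 5.03, adjusted p = 0.067). These intervals are for a single gene and are not widened for the number of genes tested. Duration differed as well, 21 days against 5, and cannot be told apart from the compound here.

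**Figure D5:**
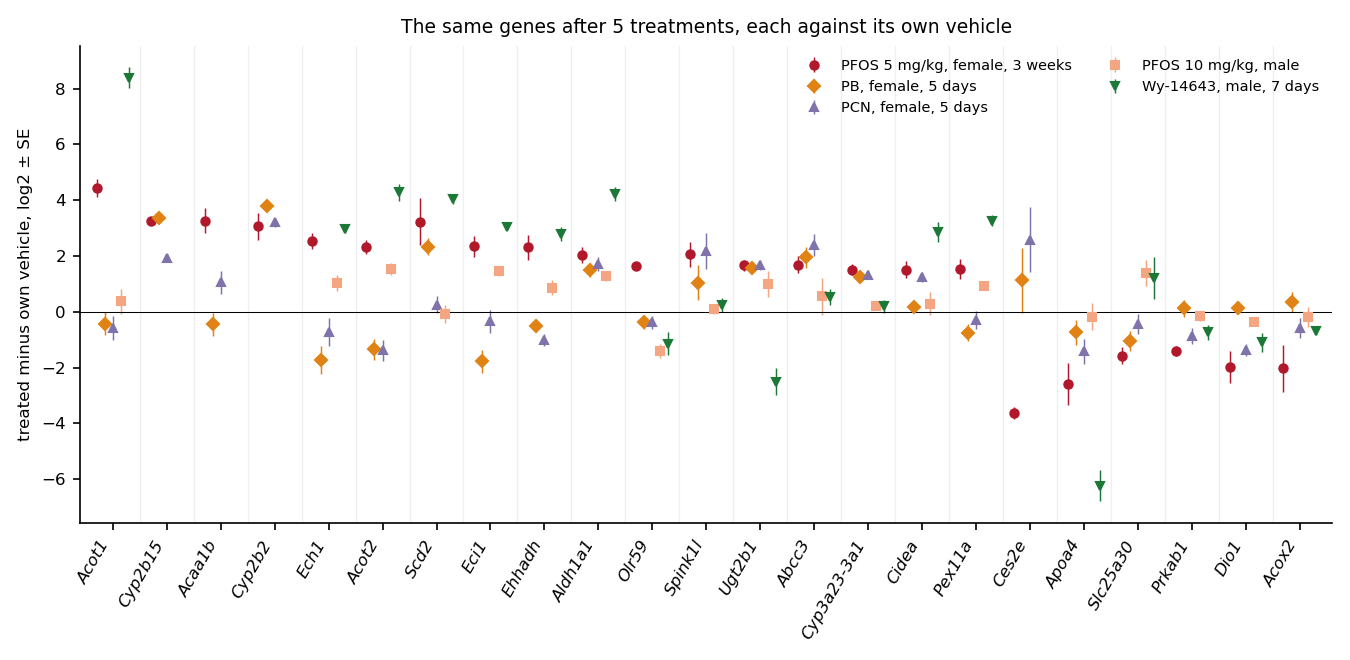
Differences from each treatment's own vehicle on the log2 scale (± SE) for the 23 bright genes 2-fold apart after PFOS. Values of the male rats come from other array types, and genes not measured there have no point. Cyp2b2 and Cyp2b15 are above 0 after PFOS, PB and PCN, with Cyp2b15 at 1.94 after PCN, while Acot1 is high after PFOS and Wy-14643 and below 0 after PB and PCN.

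In male rats on other array types, with another dose or compound, values can only stand side by side. Of the 22 higher genes 19 were measured there, and 11 of them rose and 1 fell after Wy-14643, with 7.38% rising and 8.11% falling among genes on both arrays. After PFOS at 10 mg/kg/day 3 of 19 rose and 0 fell (0.458% and 0.284%). Acot1 differed by 8.39 after Wy-14643 and by 0.37 after PFOS in males. Scd2 and Aldh1a1, which also rose after PB in females, rose by 4.04 and 4.22 after Wy-14643. After PFOS in males they differed by -0.09 and 1.27, and neither passed. Eci1, Acot2 and Pex11a were the 3 that rose after PFOS in males, by 1.47, 1.54 and 0.93. Ehhadh differed there by 0.87 (adjusted p = 0.25). Ugt2b1 was the gene that fell after Wy-14643, with a change of -2.50. Cyp3a23-3a1 differed by 0.19 after Wy-14643 and by 0.22 after PFOS in males, and neither passed. Of the lower genes Apoa4, Dio1 and Acox2 also fell after Wy-14643, with changes of -6.24, -1.10 and -0.68, and 0 of 14 passed after PFOS in males.

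A fit that took the spread between rats from these 4 arrays together with the 15 female arrays called 30 probe sets higher (0.343%) and 5 lower (0.0572%). Of genes these were 12 higher (0.253%) and 3 lower (0.0633%). Cyp2b15 had an adjusted p of 4.3e-07 in that limma fit, Cyp2b2 of 7.9e-05 and Acot1 of 0.0039. Over 12 alternatives the highest adjusted p of each of these 3 genes was 1, the lowest 4.3e-07, 7.9e-05 and 0.0011. On simulated data in which each study kept its own spread, the fit with the shared spread called 200 of 8540 unchanged probe sets and the test against PB 75. Both counts are more than the threshold allows and more than was called in these data. The test against PCN was not simulated. Leaving out the dimmest 33.3% of probe sets or scaling each array to a common median called 25 and 37 probe sets. On simulated data these 2 fits called 0 of 50 probe sets changed by 2 and 0 of 50 changed by 3. The simulation therefore did not reproduce how these fits behaved on the arrays. In these 2 and the fit with the shared spread, 3 fits in all, 15 probe sets were called alike, 14 higher and 1 lower. A pseudocount of 1 called 17 probe sets, and 0 of these 15 were among them. The 15 carried Acot1, Acaa1b, Cyp2b15, Cyp2b2 with its shared probe sets, 3 probe sets of Scd2, the probe set of Cyp3a2 and Cyp3a23-3a1, that of Ces2 and Ces2c, and a dim probe set of Gas6 whose brighter one differed by -0.34. Ces2e was called in 2 of the 3, with an adjusted p of 0.74 under the shared spread.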

How the data were processed

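The authors deposited one intensity per probe set and array on a linear scale with values below 0, and the steps before that are not given in the sources. Values under 0 were raised to 0 before log2(value + 16), and the 4 arrays were used as deposited. Of 8799 probe sets 59 controls were left out; 7018 carried 1 symbol, 308 several and 1473 none. A gene was read from its brightest probe set with 1 symbol, and probe sets with several symbols were described as shared. The groups were compared with group means fitted by lmFit and eBayes (limma 3.58.1, R 4.3.3; Benjamini-Hochberg over 8740 probe sets; two-sided), and sorted by the smallest pair difference. The 15 female 5-day arrays were quantile normalised among themselves, and the male studies within each study. Precision is limited by the number of arrays, and p-values measure the spread between 2 rats a side.

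Named genes were 40 key genes, up to 4 members of each of 34 lists among those that passed or were 2-fold apart, and the 20 higher and 20 lower genes with the widest smallest pair difference; other named genes, the noise level and the promoter genes were chosen after their values were seen. Members and lists were chosen with earlier results of these data known. Alternatives were other pseudocounts, quantile normalization, median scaling, leaving out the lowest 33.3% of probe sets, robust moderation with a trend, a shared spread, averaging a gene's probe sets, each array left out, and a replicate block of neighbouring rat numbers. The fits were tested on simulated data with known changes. Promoters are from RefSeq (GRCr8), where 31 of 39 genes matched. Figures were drawn with Python 3.11.15 and matplotlib 3.10.9.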

Additional observations from a re-analysis of the deposited data

How the results depend on the processing

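All 39 genes that were 2-fold apart kept their direction under quantile normalization and median scaling. Pseudocounts of 1 and 64 and leaving out an array could not turn it, because these genes were chosen for 1 direction in every pair of rats. No named gene without overlap reversed under the alternatives run, while overlapping ones could, such as Cyp3a2 with differences from -0.88 to 0.49. Of the 39 genes, 37 stayed 2-fold apart under quantile normalization, 36 under median scaling and 18 with a pseudocount of 64, which compresses dim genes. Of 8740 probe sets limma called 37 under median scaling, 17 with a pseudocount of 1, 25 without the lowest 33.3% and 35 with the shared spread, against 0 in the fit as reported; leaving out an array gave 0 to 0. The cause of the other counts was not tested. Probe sets 2-fold apart numbered 178 higher and 131 lower with a pseudocount of 1, and 31 and 5 with one of 64. Leaving out an array, which leaves 2 pairs of rats, gave 116 to 170 higher and 83 to 227 lower. The test against PB called 6 probe sets, 1 under median scaling and 17 with a pseudocount of 1, and 28 to 122 with an array left out. The test against PCN called 18, then 28 with a pseudocount of 1, and 49 to 120 with an array left out, where the lone rat is assumed to vary like the others. The labels' rat numbers are neighbouring between groups, not shared; deviations of neighbours from their group means correlated at 0.38, and with these numbers as a replicate block limma called 0 probe sets (757 at an unadjusted p under 0.05). With 2 rats a side, genes near the floor cannot be ordered.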

Other observations

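A further 16 genes had a probe set that was 2-fold apart in every pair of rats although their brighter probe set was not, and 3 of these lay above the noise level. Dusp1, a phosphatase of MAP kinases, stood at 4.52 and 4.00 after PFOS, against 7.28 and 6.91 after vehicle, on that probe set, while its brighter one differed by -1.15. Atp6v1a, a subunit of the proton pump of lysosomes, differed by -2.03 on the one and by -0.25 on the other. Decr2, a peroxisomal reductase for unsaturated fatty acids, differed by 1.37 and 0.81. These genes were chosen after their values were seen.

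Genes of the circadian clock were mostly dim. Nr1d1, a repressor of the clock, stood at 7.22 and 7.73 after PFOS, against 6.55 and 6.76 after vehicle, and its relative Nr1d2 at 5.85 and 5.75 after PFOS, against 4.92 and 4.96 after vehicle. Both were without overlap and short of 2-fold on these probe sets. A second, dimmer probe set of Nr1d1 was 2-fold apart, at 6.18 and 6.65 after PFOS, against 4.11 and 4.28 after vehicle, under the noise level in all 4 rats. Gcgr, the glucagon receptor, stood at 7.79 and 8.02 after PFOS, against 8.59 and 8.74 after vehicle, and Pygl, glycogen phosphorylase of liver, at 7.84 and 8.15 after PFOS, against 8.80 and 8.65 after vehicle. Adh4, an alcohol dehydrogenase, stood at 8.21 and 9.17 after PFOS, against 7.72 and 6.79 after vehicle. Asns, asparagine synthetase, was dim at 5.99 and 6.21 after PFOS, against 5.30 and 5.18 after vehicle, and was called in limma with the shared spread (adjusted p = 0.025) but not in limma over the 4 arrays alone.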
